A study of Mus musculus with 6 samples.

Results

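The genes examined here encode the protein subunits of the mitochondrial ribosome and were chosen by symbol, as every listed gene whose name begins with Mrpl or Mrps followed by a digit. This rule found 78 genes among the 25361 of the count table, 49 of the large subunit (Mrpl) and 29 of the small subunit (Mrps). The libraries came from hearts of male wild-type C57BL/6N mice, described as 12 weeks old without saying whether at the start of treatment or at collection. The 3 control mice were untreated, and the other 3 had received ISO+L-NAME for 6 weeks, which the series title describes as a model of HFpEF, heart failure with preserved ejection fraction. L-NAME inhibits nitric oxide synthase, and the labels do not spell out ISO. RNA of heart tissue was sequenced from the 3′ end of polyadenylated messages, with between 2217974 and 2637364 counts per library.

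Mitochondrial ribosomes translate the few messages that the mitochondrial genome encodes, all of which specify subunits of the respiratory chain and the ATP synthase. The small subunit holds the message and decodes it, and the large subunit joins the amino acids. Their protein subunits are encoded in the nucleus, made in the cytosol and imported, so each particle combines products of both genomes. Part of the proteins have a counterpart in the bacterial ribosome (in the names of the particle's structure they begin with u or b). The others (m) are classed here as mitochondria-specific. The heart, a tissue dense in mitochondria, depends on this translation, and inherited defects of several of these genes in humans cause cardiomyopathy.

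The mitochondrial ribosomal protein messages changed little between treated and control hearts. All 78 genes had enough counts to be tested, 1 was called higher (Mrps23, by 1.37-fold) and 1 lower (Mrpl23, to 0.702 of the control level), and 76 were not called. Each of these calls is 1.28% of the members, against 3.41% of all 8531 tested genes called higher and 2.68% called lower. A call means an adjusted p under 0.05 in the quasi-likelihood test of edgeR, with p-values adjusted by Benjamini-Hochberg over all tested genes and written below as edgeR adjusted p. Changes are log2 ratios, treated over untreated, on libraries scaled by TMM (trimmed mean of M values), with their standard error (SE), and levels are CPM, the count scaled to a common library size, on the same scaling. Because 1 read stands for 1 message end, CPM is not divided by message length.

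The promoters of members with the smallest p in each direction are shown: Mrps23, which was called higher, Mrpl33, which came next on that side and was not called, and Mrpl23, which was called lower. No promoter is shown for Mrps35, which came next on the lower side and was not called. The sequences are RefSeq's on GRCm38.p6, from 250 bases before to 50 bases after the start, at chr11:88204138-88204437, chr5:31613701-31614000 and chr7:142532782-142533081, each on the + strand. Capitals mark matches to motifs searched on both strands, CCGGAAG for the ETS family and GCATGCGC for the core of NRF1.
Mrps23: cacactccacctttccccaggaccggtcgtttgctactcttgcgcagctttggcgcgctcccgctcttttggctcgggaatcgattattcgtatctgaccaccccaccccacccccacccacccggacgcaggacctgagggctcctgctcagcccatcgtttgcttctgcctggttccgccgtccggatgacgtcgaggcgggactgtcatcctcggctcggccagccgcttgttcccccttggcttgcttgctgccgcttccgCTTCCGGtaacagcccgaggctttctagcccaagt
Mrpl33: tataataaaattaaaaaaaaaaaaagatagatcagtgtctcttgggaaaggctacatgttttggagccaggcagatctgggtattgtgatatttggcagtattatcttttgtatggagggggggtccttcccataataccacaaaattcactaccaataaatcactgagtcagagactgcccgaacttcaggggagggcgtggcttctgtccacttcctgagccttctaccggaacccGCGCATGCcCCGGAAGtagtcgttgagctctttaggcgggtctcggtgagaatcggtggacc
Mrpl23: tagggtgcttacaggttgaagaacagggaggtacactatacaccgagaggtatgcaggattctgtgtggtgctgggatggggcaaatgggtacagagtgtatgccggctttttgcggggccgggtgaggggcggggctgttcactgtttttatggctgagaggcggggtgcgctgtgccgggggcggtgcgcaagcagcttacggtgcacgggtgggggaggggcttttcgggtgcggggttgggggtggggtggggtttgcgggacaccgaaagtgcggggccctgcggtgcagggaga
The Mrps23 window holds 1 ETS match on the reverse strand, the Mrpl33 window holds both an NRF1 core and an ETS match, and the Mrpl23 window holds no match to the 5 motifs searched.

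Of the 78 members, 69 were found in the promoter table, with 75 promoters in all. The ETS letters CCGGAAG stood in 26 of these 75 promoters (34.7%), against 8.86% of the 32851 promoters of the table. They were found in 15 of 48 large subunit promoters and in 11 of 27 small subunit promoters. The NRF1 core GCATGCGC stood in 8 promoters (10.7%, against 2.71%), 7 of the large subunit and 1 of the small. YY1's AAGATGGCG stood in 8 (10.7%, against 1.40%), 4 of each subunit. The E-box CACGTG stood in 7 (9.33%, against 7.15%), and several of the 7 were alternative promoters of Mrpl2. The estrogen-related receptor letters TCAAGGTCA stood in 0 (against 0.423%). These are counts of promoters and not of genes. None of these motifs is contained in another. NRF1 and the ETS factor GABP are known as activators of nuclear genes for mitochondrial proteins. Binding was not measured here, and a match is a run of letters and not a site.

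Mrps23, which encodes mS23, a small subunit protein with no bacterial counterpart, was the member that rose (ENSMUSG00000023723; chromosome 11, 88095214 to 88102333 on GRCm39, + strand). Its counts in control hearts were 191, 182 and 192, against 330, 305 and 363 after treatment. On the TMM scaling the levels were 86.5, 90.4 and 91.7 CPM in control hearts and 109, 119 and 140 CPM in treated hearts. Every treated heart lay above every control. The change was 0.45 ± 0.12 (SE; 95% interval 0.20 to 0.71; edgeR adjusted p = 0.0290). The call was lost without control 1 or 2 (edgeR adjusted p = 0.146 and 0.0673), without treated heart 2 or 3 (edgeR adjusted p = 0.0810 and 0.158) and in DESeq2 (adjusted p = 0.0616), with the change between 0.35 and 0.53 in the fits without 1 library.

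Mrpl23, which encodes uL23m, the counterpart of a bacterial large subunit protein beside the exit of the peptide tunnel, was the member that fell (ENSMUSG00000037772; chromosome 7, 142086423 to 142094484, + strand). Its levels were 65.2, 87.4 and 62.1 CPM in control hearts and 54.4, 49.9 and 45.9 CPM in treated hearts. The groups did not overlap, and control 2 stood above the other controls. The change was -0.51 ± 0.14 (SE; 95% interval -0.81 to -0.21; edgeR adjusted p = 0.0373). The call held without control 3 and was lost without any other single library (edgeR adjusted p = 0.0538 to 0.210), in DESeq2 (0.114) and with total counts alone (0.336), where the change was -0.20. Without control 2 the change was -0.35. Neither Mrps23 nor Mrpl23 overlapped another listed gene. Each had 1 tested neighbour within 100000 bases, Cuedc1 at -0.24 ± 0.19 beside Mrps23 and Lsp1 at 0.59 ± 0.24 beside Mrpl23, neither called (edgeR adjusted p = 0.580 and 0.188).

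**Figure D1:**
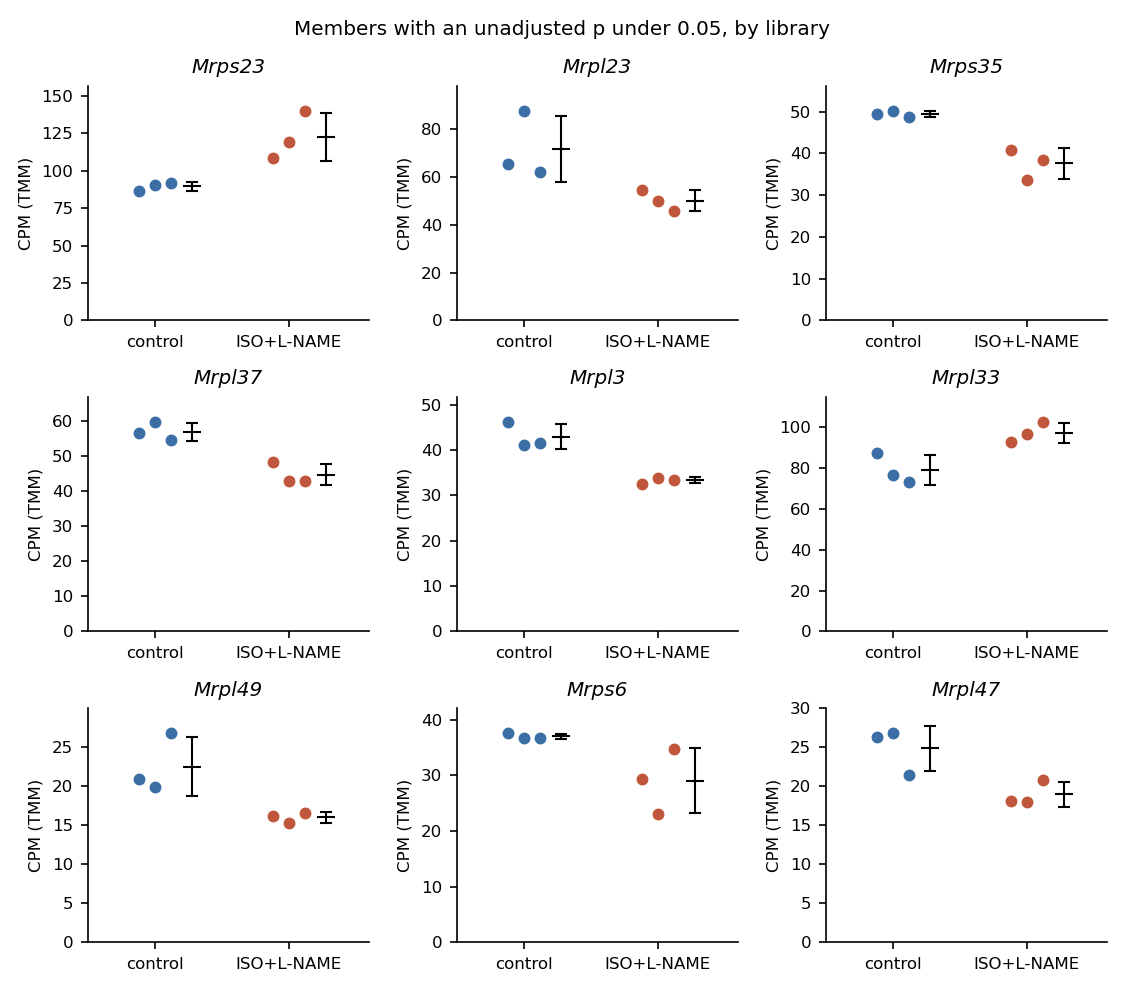
Level of the 9 members with an unadjusted p under 0.05, in CPM on TMM-scaled libraries, with 1 point per library (control in blue, ISO+L-NAME in red) and the mean ± SD of 3 libraries in black. Mrps23 and Mrpl33 lie higher and the other 7 lower in treated hearts, without overlap between groups on this scaling. The members were picked by p in these same libraries, so the separation is not further support.

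At an unadjusted p under 0.05, 2 members were higher (2.56%, against 9.33% of all tested genes) and 7 lower (8.97%, against 8.79%). Besides the called pair these were Mrpl33 on the higher side and Mrps35, Mrpl37, Mrpl3, Mrpl49, Mrps6 and Mrpl47 on the lower, none of which passed the adjusted test. The plot of these members by library shows that the differences were small beside the level itself. Mrpl33, which encodes bL33m of the large subunit, was at 87.4, 76.5 and 73.1 CPM in control hearts and 92.6, 96.7 and 102 CPM in treated hearts (0.30 ± 0.12, edgeR adjusted p = 0.176). Its lowest treated heart lay just above its highest control. Mrps35, which encodes the mitochondria-specific mS35, was at 49.4, 50.2 and 48.7 CPM in control hearts and 40.9, 33.5 and 38.5 CPM in treated hearts (-0.39 ± 0.14, edgeR adjusted p = 0.118). The controls were nearly level, and the lowest value was that of ISO+L-NAME 2.

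Mrpl3 encodes uL3m, a large subunit protein whose human counterpart is mutated in a mitochondrial cardiomyopathy. Its levels were 46.2, 41.2 and 41.6 CPM in control hearts and 32.6, 33.9 and 33.5 CPM in treated hearts (-0.37 ± 0.14, edgeR adjusted p = 0.156). The groups did not overlap. Mrpl49, for mL49, was at 20.8, 19.9 and 26.7 CPM in control hearts and 16.2, 15.2 and 16.6 CPM in treated hearts (-0.49 ± 0.20, edgeR adjusted p = 0.176). Mrpl47, for uL29m, differed by -0.39 ± 0.19, and Mrps6, for bS6m, by -0.35 ± 0.17 (edgeR adjusted p = 0.270 and 0.268). Mrpl47 shares its locus with Ndufb5, a complex I gene on the other strand with 7746 counts against the 312 of Mrpl47, and Mrps6 overlaps Slc5a3 on its own strand, with 52 counts against 472. Mrpl37, for mL37, is outside the rule for named genes and was singled out after its values were seen: it differed by -0.35 ± 0.13 (edgeR adjusted p = 0.140).

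Groups did not overlap on the TMM scaling for 17 members, 3 with all treated hearts higher (3.85%, against 11.4% of all tested genes) and 14 with all treated hearts lower (17.9%, against 11.3%). Of the 14, 11 were large subunit genes (22.4% of 49) and 3 small subunit genes (10.3% of 29). Many of these separations were narrow. Mrpl51, for mL51, lay at 184, 172 and 171 CPM in control hearts and 168, 168 and 167 CPM in treated hearts, and its change was -0.07 ± 0.10 (edgeR adjusted p = 0.820). Mrpl34, for bL34m, lay at 125, 122 and 118 CPM and 104, 106 and 118 CPM (-0.16 ± 0.11, edgeR adjusted p = 0.533).

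On the TMM scaling, the precision of these libraries bounds the changes that were not called. For all 78 members the 95% interval of the change lay within 2-fold in either direction, and for 60 (76.9%) it lay within 1.5-fold. Over all tested genes these shares were 78.5% and 34.9%. The members had a median level of 33.1 CPM and a median SE of 0.16, against 16.0 CPM and 0.23 over all tested genes. The quartiles of their changes ran from -0.18 to 0.08, against -0.21 to 0.21 over all tested genes. An interval within 1.5-fold bounds a difference and does not show that the levels were equal. These bounds also depend on the scaling: with total counts alone the median change of the members lay 0.30 higher.

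**Figure D2:**
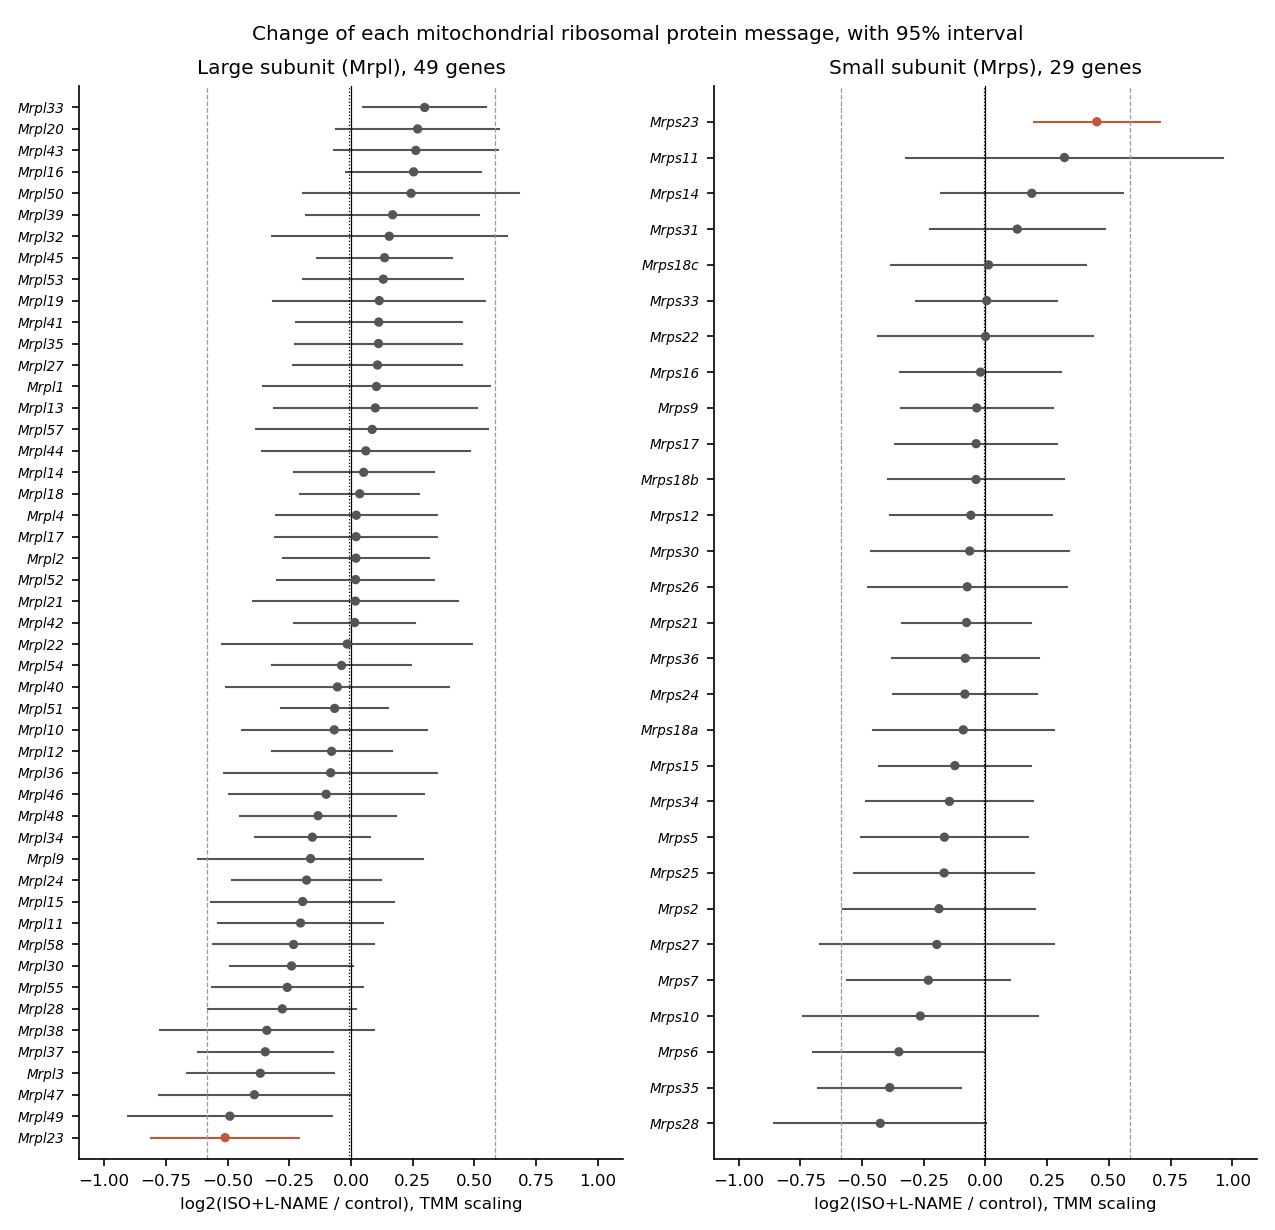
Log2 change of each of the 49 large and 29 small subunit messages (points) with its 95% interval (bars), ordered by size; the 2 called members are red. Grey dashed lines mark a 1.5-fold change in either direction and the dotted line the median of all tested genes. No interval reaches 2-fold on the TMM scaling.

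Comparing the subunits, the large subunit had a median change of 0.02 with 25 members above and 24 below 0, and the small subunit a median of -0.08 with 7 above and 22 below. The median over all tested genes was -0.01. Both subunits spanned similar ranges, from -0.51 to 0.30 for the large and from -0.43 to 0.45 for the small. Large subunit calls were 0 higher and 1 lower of 49, and small subunit calls 1 higher and 0 lower of 29. The difference between the subunits' medians is a description, since members share the same 6 libraries. The sign of the large subunit median was not stable: it was -0.034 without control 1, -0.051 without control 3 and -0.085 without ISO+L-NAME 3. The small subunit median ran from -0.11 to -0.04 without single libraries. Scaled by total counts alone, both medians were positive, 0.32 for the large and 0.23 for the small, where the median of all genes was 0.29. That scaling called 7 members higher and 0 lower, with 16.2% of all tested genes called higher and 0.867% lower. The 7 were Mrps23, Mrpl16, Mrpl20, Mrpl33, Mrpl43, Mrpl45 and Mrpl53.

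The letter in a name does not always give the place of the protein. The proteins of Mrps30 (mL65) and Mrps18a (mL66) sit in the large subunit, and that of Mrps36 is now assigned to the 2-oxoglutarate dehydrogenase complex. Mrps30 differed by -0.06 ± 0.19, Mrps18a by -0.09 ± 0.18 and Mrps36 by -0.08 ± 0.14, none of them called (edgeR adjusted p = 0.920, 0.867 and 0.842). With genes placed by the particle, and with 5 subunit genes of other names added (Dap3, Ptcd3, Chchd1, Aurkaip1 and Gadd45gip1), the medians were 0.00 for 52 large and -0.08 for 30 small subunit genes. Mrps18b and Mrps18c, the other relatives of bacterial S18, differed by -0.04 ± 0.17 and 0.01 ± 0.19. In these 3 relatives every group overlapped, with Mrps18a at 26.3 to 38.7 CPM in control hearts and 27.4 to 37.4 CPM in treated hearts.

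Members classed as having a bacterial counterpart and those classed as mitochondria-specific differed little in their messages. The 46 members with a bacterial counterpart had a median change of -0.06, with 0 called higher and 1 lower. The 31 mitochondria-specific members had a median of -0.04, with 1 called higher and 0 lower. Within the small subunit by placement, which leaves out Mrps30 and Mrps18a, 13 of 16 genes with a bacterial counterpart were below 0. So were 6 of 10 mitochondria-specific genes. The single member in neither class is Mrps36. The classes follow the letter of the protein's name, so Mrps18a (mL66) and Mrps18b (mS40), though relatives of bacterial S18, count as mitochondria-specific.

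Summed over members, the mitochondrial ribosomal protein messages made 0.318%, 0.321% and 0.322% of all counts in control hearts and 0.380%, 0.375% and 0.398% in treated hearts. All treated hearts lay above all controls on this measure. Messages of the mitochondrial genome made 53.6% to 56.7% of all counts in control hearts and 45.5% to 47.8% in treated hearts, so the remaining messages shared a larger part of each treated library. Of counts outside the mitochondrial genome, the members made 0.708%, 0.741% and 0.695% in control hearts and 0.697%, 0.717% and 0.755% in treated hearts, and the groups overlapped. The means of that share were 0.715% ± 0.0236 and 0.723% ± 0.0292 (SD, n = 3). On the TMM scaling the summed level was 3562 ± 165 CPM in control hearts and 3461 ± 167 CPM in treated hearts (SD, n = 3), again with overlap. In RNA of bulk tissue, fewer cells of a type and less RNA per cell cannot be told apart.

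The balance between the subunits stayed within the spread between libraries. The summed large subunit counts were 1.95, 1.97 and 1.94 times the small subunit counts in control hearts and 2.03, 1.93 and 1.95 times in treated hearts. The treated ratios enclosed all 3 control ratios. With subunits by placement, the ratios ran from 1.84 to 1.90 in control hearts and from 1.85 to 1.95 in treated hearts.

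**Figure D3:**
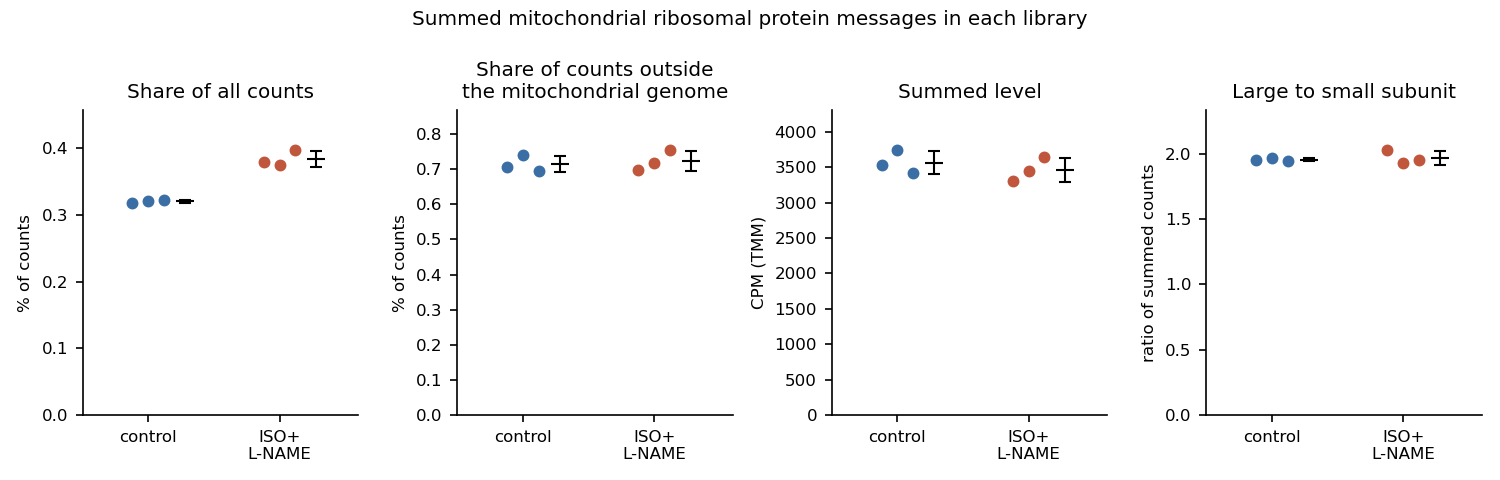
Summed counts of the 78 messages in each library as a percentage of all counts, as a percentage of counts outside the mitochondrial genome and as CPM on TMM-scaled libraries, and the ratio of large to small subunit counts, with the mean ± SD of 3 libraries in black. The groups separate in the first panel, at 0.318 to 0.322% against 0.375 to 0.398%, and overlap in the other panels.

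Levels of single members spanned 24.3-fold, from 9.89 CPM for Mrps11 to 240.3 CPM for Mrps21, averaged over the 6 libraries. The 5 most abundant members held 23.8% of the members' counts. Mrps21, for bS21m, lay at 245, 290 and 205 CPM in control hearts and 203, 244 and 255 CPM in treated hearts (-0.08 ± 0.13, edgeR adjusted p = 0.828). Mrpl42, for mL42, lay at 199.7, 230.4 and 170.5 CPM and 197, 195 and 215 CPM (0.02 ± 0.12, edgeR adjusted p = 0.972). The groups overlapped in both. Mrps11, for uS11m, had 11 to 27 counts in control hearts and 26 to 36 in treated hearts, the widest interval of the members (-0.32 to 0.96). It overlaps Mrpl46 on the other strand, which had more counts (336 against 144) and differed by -0.10 ± 0.19.

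A further 6 members named for their roles were not called. Mrpl12, for bL12m of the factor-binding stalk, which also binds the mitochondrial RNA polymerase, differed by -0.08 ± 0.12. Its counts in control hearts were 233, 206 and 235, against 302, 284 and 241 after treatment. Mrpl44, for mL44, and Mrps22, for mS22, both linked to cardiomyopathy in humans, differed by 0.06 ± 0.20 and 0.00 ± 0.21. Mrps12, for the decoding protein uS12m, differed by -0.06 ± 0.16. Mrps14, for uS14m, differed by 0.19 ± 0.18. Mrpl58, for mL62, a peptidyl-tRNA hydrolase that frees stalled ribosomes, lay lower in all treated hearts at -0.23 ± 0.16. The edgeR adjusted p of these 6 genes ran from 0.498 to 1.00.

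The remaining members named by the rule lay among the larger changes of their subunit, again with no call. On the higher side of the large subunit were Mrpl20 (bL20m) at 0.27 ± 0.16, Mrpl43 (mL43) at 0.26 ± 0.16 and Mrpl16 (uL16m) at 0.25 ± 0.13. On the higher side of the small subunit were Mrps11 at 0.32 ± 0.31 and Mrps31 (mS31) at 0.13 ± 0.17. On the lower side of the small subunit were Mrps28 (bS1m) at -0.43 ± 0.21 and Mrps10 (uS10m) at -0.26 ± 0.23. The edgeR adjusted p of these 7 genes ran from 0.279 to 0.771, and the groups did not overlap in Mrpl16 alone.

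On the TMM scaling, 4 lists of further subunits and of genes that assemble or serve the mitochondrial ribosome had 0 calls. Over all tested genes, 3.41% were called higher and 2.68% lower. At an unadjusted p under 0.05 these shares were 9.33% and 8.79%. At such shares, lists this short would hold few calls or none. The 5 subunit genes of other names had 0 calls and a median of -0.20, led by Chchd1 (mS37) at -0.31 ± 0.14 (edgeR adjusted p = 0.214). Assembly factors had 0 calls among 22 tested of 28 in the table (median 0.02; 1 higher and 0 lower at an unadjusted p under 0.05). The smallest p there was that of Trub2, a pseudouridine synthase, at 0.64 ± 0.24 (edgeR adjusted p = 0.139). Translation factors had 0 calls among 13 tested of 16 (median -0.06; 0 higher and 2 lower unadjusted). Tufm, the elongation factor that delivers aminoacyl-tRNA, had the smallest p there at -0.35 ± 0.14 (edgeR adjusted p = 0.187). Aminoacyl-tRNA synthetases and the glutaminyl-tRNA amidotransferase had 0 calls among 16 tested of 22 (median -0.18; 0 higher and 3 lower unadjusted), the smallest p being that of Kars, for lysine, at -0.34 ± 0.13 (edgeR adjusted p = 0.149). These genes are named for the smallest p of their list, after their values were seen. Counts are by gene, so a value such as that of Kars does not separate mitochondrial from any other products of that gene. The interval of the change lay within 1.5-fold in either direction for 3 of the 5 subunit genes and 1 of 22 assembly factors. It did so for 4 of 13 translation factors and 2 of 16 synthetase and amidotransferase genes. Outside the subunit genes, 0 calls thus does not exclude changes of that size for most genes. DESeq2 also called 0 in these 4 lists, and total counts alone called 1 assembly factor.

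Of the 13 protein-coding genes of the mitochondrial genome, whose messages the mitochondrial ribosome translates, 10 were called lower and 0 higher, with a median of -0.62. Counts are by gene, and the 13 genes need not be 13 separate messages. Every one of the 13 changes was below 0, from -1.19 to -0.31, a range that overlaps that of the 78 members (-0.51 to 0.45). The 3 with the smallest p were mt-Nd4l at -1.19 ± 0.09, mt-Nd5 at -0.82 ± 0.10 and mt-Nd4 at -0.64 ± 0.09, all subunits of complex I (edgeR adjusted p = 2.21e-07, 1.81e-05 and 5.94e-05). The fall was not particular to complex I: mt-Co3, outside it, had the same adjusted p as mt-Nd4, at -0.62 ± 0.08. The 3 genes not called, mt-Nd3, mt-Nd2 and mt-Nd6, are also of complex I (edgeR adjusted p = 0.0754, 0.0827 and 0.212). The contrast between these lists and the members was not tested.

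The cytosolic ribosome is the family most alike. Of 74 tested cytosolic ribosomal protein genes, 1 was called higher and 1 lower (1.35% each, against 3.41% and 2.68% of all tested genes). Their median change was -0.10, and 61 lay below 0 (82.4%, against 59% of the members and 50.9% of all tested genes). All treated hearts lay lower without overlap for 21 of the cytosolic genes (28.4%) and higher for 1 (1.35%). These shares were 17.9% and 3.85% among the members, and 11.3% and 11.4% over all tested genes. The difference between the families was not tested. Rps13 differed by 0.37 ± 0.11 and Rpl36 by -0.35 ± 0.10 (edgeR adjusted p = 0.0442 and 0.0494), and without single libraries the calls numbered 0 or 1. Scaled by total counts the median was 0.21 and 12 genes were called, all higher. Cytosolic ribosomal protein genes have many near-identical pseudogenes, which makes single members uncertain.

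**Figure D4:**
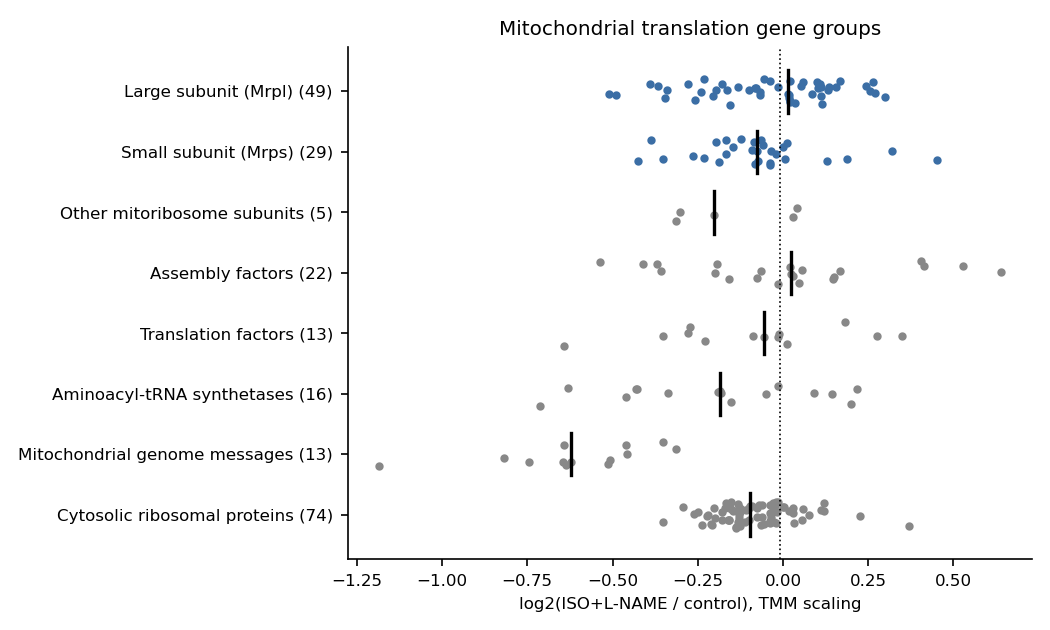
Log2 change of each tested gene (points) in 8 groups, with the number of genes in brackets, the median of each group (black bar) and the median of all tested genes (dotted line). The 2 subunits of the mitochondrial ribosome lie around 0, with medians of 0.02 and -0.08, and the messages of the mitochondrial genome lie lower, with a median of -0.62.

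The members lie on 17 chromosomes, with 11 on chromosome 11, the most on any. In the table's own coordinates 27 overlapped another listed gene and 21 a gene with counts, of which 3 shared a strand with it (Mrps6, Mrps24 and Mrps34). In Mrpl36, Mrpl47, Mrpl48 and Mrps11 the overlapping gene had more counts than the member. Whether reads were assigned by strand is not given in the sources used here.

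The libraries held the markers of heart, and marker levels of cardiomyocytes, macrophages and fibroblasts differed between the groups without overlap. All 10 cardiomyocyte markers were detected, at a summed level of 54946 to 57409 CPM in control hearts and 49273 to 53100 CPM in treated hearts, with 2 called higher and 4 lower. The 10 macrophage markers summed to 164 to 216 CPM in control hearts and 369 to 444 CPM in treated hearts, with 7 of 10 called higher. The 10 fibroblast markers summed to 923 to 1313 CPM and 1558 to 2039 CPM, with 5 of 9 tested called higher. The summed levels of endothelial (1059 to 1281 and 1075 to 1085 CPM), mural (1114 to 1289 and 1181 to 1501 CPM), red blood cell (4326 to 6034 and 4001 to 4971 CPM) and adipocyte markers (3292 to 4293 and 3837 to 3966 CPM) overlapped between groups. Of 9 mural markers tested, 1 was called higher and 1 lower. The endothelial, red blood cell and adipocyte lists had 0 calls among 9, 5 and 2 tested genes. At an unadjusted p under 0.05, 0 of 9 endothelial markers were higher and 4 lower. For mural markers these counts were 1 and 3 of 9, and for red blood cell markers 0 and 2 of 5. Over all tested genes the shares were 9.33% and 8.79%. Lep, Cidec, Plin1 and Adipoq, which define adipocytes, and Trac of lymphocytes were at 0, and the lymphocyte list summed to at most 13.5 CPM. The adipocyte sum thus comes from the other genes of that list and is not a measure of adipocytes. The part of the shifts in marker levels in the values of the members was not tested.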

How the data were processed

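Raw counts for every gene, as the authors deposited them, were the values analysed. The deposited table also holds a scaled signal headed CPM whose library totals differ, and it served only as another set of library sizes, chosen after seeing the data. Per the labels' protocols, libraries came from a 3′-end forward kit (QuantSeq). The submitters' processing notes name bcl2fastq and GRCm39. How reads were aligned, assigned and deduplicated, and whether strand was used, is not given here.

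Low counts were removed by filterByExpr (at least 10 in enough libraries, 15 in sum). TMM factors ran from 0.858 to 1.15. The test was edgeR 4.0.16 under R 4.3.3 (glmQLFTest after glmQLFit, group as the one term, two-sided, Benjamini-Hochberg over 8531 genes). Each SE was taken as the size of the log2 change divided by the root of its F statistic, and intervals are unadjusted. Replicates differed beyond sampling noise (chi-square per degree of freedom 2.10 to 3.42). The design text gives 3 mice per group and no label ties a library to a mouse, so p-values measure the spread between these libraries. The procedure was tested on simulated counts. Members and lists were chosen with earlier results of these data known. The text names every called member, in each subunit the 4 largest changes each way and the 3 highest levels, and 12 genes listed by symbol. Alternatives were RLE, total counts, the mitochondrial genome left out, other filters, a robust fit, DESeq2 1.42.0, voom of limma 3.58.1, a replicate block and each library left out. A pseudocount was planned for a table without counts and was not needed.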

Additional observations from a re-analysis of the deposited data

How the results depend on the processing

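Single members held between 144 and 3457 counts over the 6 libraries. The 2 member calls became 7 (all higher) with total counts alone, 1 with the mitochondrial genome left out and total counts of the remaining genes, and 0 in DESeq2; without single libraries they numbered 0 to 2. At an unadjusted p under 0.05, DESeq2 had 2 members higher and 2 lower. Median changes of the large and small subunits were 0.32 and 0.23 with total counts, and -0.085 to 0.030 and -0.11 to -0.04 without single libraries. The log2 ratio of the members' summed share of counts, 0.26 on all counts, was -0.041 with TMM, -0.036 with RLE, -0.041 with TMM and 0.017 with total counts after leaving out the mitochondrial genome, and -0.051 with the deposited library sizes. The 2 cytosolic ribosomal protein calls became 12 with total counts and 1 with RLE, with either mitochondrial setting, with the replicate block, with the deposited sizes and in DESeq2, and numbered 0 to 1 without single libraries. Total counts called 1 assembly factor. The cause was not tested.

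Same-numbered libraries shared only a number: their deviations correlated at 0.06, -0.03 and -0.01, and not every library correlated best with its own number. With the replicate block 2 members were called, again Mrps23 higher and Mrpl23 lower, and 560 genes in all against 520. Of 510 values of the 30 named members under alternatives, 13 lost a call (Mrps23 and Mrpl23), 4 gained one (Mrpl33, Mrpl20, Mrpl43 and Mrpl16, with total counts), 0 reversed past the threshold, and 36 changed sign with neither value called.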
